A study of Mus musculus with 2 samples.

Results

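The replication-dependent histone genes encode the core histones H2A, H2B, H3 and H4 and the linker histone H1 that package newly copied DNA. They were taken by name, as genes with a current symbol of the H1f1 to H1f6, H2ac, H2bc, H3c or H4c series, or an older symbol of the Hist1h, Hist2h or Hist3h series. Of 69 such genes, 66 were listed in both files, out of 23274 named genes. H2bc23 and the pseudogenes H2ac14 and H2af-ps2 were not among them. A total of 42 members reached 1 FPKM (fragments relative to transcript length and to library size) in at least 1 library and were compared, and the other 24 stayed under that level in both libraries, with H4c14 and H2bu1-ps listed at 0 in both.

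Poly(A) RNA was sequenced from spermatogonial progenitor cells of C57BL/6 testes at 8 days after birth. There were 2 libraries, 1 labelled wild-type and 1 labelled Dnmt3l knockout, and the age, strain and cell type were common to both. The Dnmt3l allele, the number of animals in a library and the way the cells were isolated were not given in the sources used here. DNMT3L is a partner of the de novo DNA methyltransferases without catalytic activity of its own, and the series title names its part in quiescence of these cells. Dnmt3l itself had 1.67 FPKM in the wild-type library (Cufflinks bounds 0.791 and 2.68) and was listed at 0 in the knockout library. Replicates are lacking, as each genotype has 1 library, so differences are described and not tested. Where 2 levels of a gene are given together, the first is that of the wild-type and the second that of the knockout library.

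Most mRNAs end in a poly(A) tail, but replication-dependent histone mRNAs normally end just after a short stem-loop. The stem-loop binding protein SLBP and the U7 small nuclear ribonucleoprotein guide the cut, and the mRNA is made in S phase and destroyed when DNA synthesis stops. In differentiated cells, and in some developmental settings, a part of these genes also gives polyadenylated mRNA. Selection for poly(A) favours the tailed fraction, and a level here is not the level of all histone mRNA.

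The stem-loop was located in 43 of the 69 genes by its letters (GG, NN, CTTTT, N, AG, NN and CC in a row) within GENCODE transcripts, on the transcribed strand. The same letters occurred in 79 of 141690 other transcripts (0.0558%). It consists of 16 nt, with 6 base pairs and a loop of 4 nt, and both arms were complementary in every member where it was found. The members held 6 forms, shown here because they separate H4 from the other classes (capitals mark the stem, lower case the loop).
Form of 26 genes, H3c1, H2bc11, H1f2 and H2ac18 among them: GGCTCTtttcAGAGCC
Form of 6 genes, H3c3 and H2bc12 among them: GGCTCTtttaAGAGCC
Form of H2ac20: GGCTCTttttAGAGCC
Form of 6 H4 genes, H4c3 and H4c4 among them: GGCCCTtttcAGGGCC
Form of H4c9 and H4c14: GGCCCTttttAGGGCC
Form of H4c2 and H4c11: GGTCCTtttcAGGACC
The last 3 forms were found in H4 genes only, and the first 3 in no H4 gene. A gene without a match lacks only these letters in the annotated transcript.

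Promoters of the classes differed as well. In the RefSeq promoter table (GRCm38.p6, 250 nt before to 50 nt after the start), 61 members had 62 promoters. CCAAT, searched on both strands, was in 54 of the 62 (87.1%) against 37.4% of all 32851 promoters. All H1, H2A, H2B and H3 promoters held it, but only 3 of 11 H4 promoters. TATAAA was in 56.5% of member promoters and 13.6% of all promoters. The octamer ATTTGCAT was in 7 H2A and 7 H2B promoters, in none of the other classes, and in 1.74% of all promoters. Below are the 250 nt upstream of 3 genes with some of the higher levels, on the coding strand, with CCAAT and TATAAA in capitals (ATTGG and TTTATA where they lie on the other strand). That of H2bc11 covers the whole gap to H2ac11.
H2bc11, chr13:22042948-22043197, plus strand: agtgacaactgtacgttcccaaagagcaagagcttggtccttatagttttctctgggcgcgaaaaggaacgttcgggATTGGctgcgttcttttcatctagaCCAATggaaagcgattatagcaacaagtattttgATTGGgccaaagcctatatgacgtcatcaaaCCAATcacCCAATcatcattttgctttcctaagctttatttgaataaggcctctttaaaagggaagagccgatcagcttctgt
H3c3, chr13:23745522-23745771, minus strand: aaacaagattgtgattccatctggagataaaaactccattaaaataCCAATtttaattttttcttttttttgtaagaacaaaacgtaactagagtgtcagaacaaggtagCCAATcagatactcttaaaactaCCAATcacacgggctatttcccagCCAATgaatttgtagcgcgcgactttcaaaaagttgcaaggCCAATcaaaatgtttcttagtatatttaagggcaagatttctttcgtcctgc
H4c9, chr13:22041363-22041612, minus strand: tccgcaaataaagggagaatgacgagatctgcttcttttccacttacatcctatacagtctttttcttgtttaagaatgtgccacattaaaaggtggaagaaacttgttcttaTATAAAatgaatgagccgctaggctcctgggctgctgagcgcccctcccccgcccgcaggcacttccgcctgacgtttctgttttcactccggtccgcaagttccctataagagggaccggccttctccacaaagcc
The H2bc11 sequence held 5 CCAAT matches, the nearest 75 nt before the start, and the H3c3 sequence held 5, the nearest at 52 nt. The H4c9 sequence held no CCAAT match and 1 TATAAA match, 137 nt before the start.

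Levels of the members were low in both libraries. Their FPKM summed to 91.0 and 146.7 (ratio 1.61), and the median member was at 0.73 and 1.42 FPKM. The most abundant was H2ac18, an H2A gene of the Hist2 cluster, at 10.1 and 12.4 FPKM. In the wild-type library 47.4% of all genes compared were below H2ac18. The precision at such levels is coarse. Bounds of the deposited estimates stepped in whole fragments and gave about 16230000 fragments for the wild-type and 17840000 for the knockout library. In the bounds, 1 fragment over the 312 nt of H4c3 was worth 0.197 and 0.180 FPKM. The FPKM itself need not follow this step. That of H4c3 in the knockout library, 4.48, lay above its upper bound of 4.31.

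Compared between the libraries, the ratios of the members lay mostly above 0, with a median near that of short genes. The ratio is log2((knockout FPKM + 1)/(wild-type FPKM + 1)). Its median was 0.57 over the 42 members, and it was above 0 in 38 (90.5%) and below 0 in 4, namely H2ac11, H2ac23, H2bc14 and H4c9. The filter on level weighs on these values and on those by class and cluster below: 20 of the 42 members reached 1 FPKM in the knockout library only, so that their ratio had to be above 0, and none did so in the wild-type library only. Over all 66 listed members, without the filter, 51 were above 0, 13 below and 2 at 0, with a median of 0.34. At least 2-fold higher in the knockout library were 8 members (19%), against 7.71% of all 13818 genes compared. Of the 8, H2ac24, H2ac15, H2ac19, H4c12, H4c17 and H2bc18 reached 1 FPKM in the knockout library only. The rest, H3c3 and H3c1, were past 2-fold only where a RefSeq transcript and an assembled model with the same exons were both counted. No member was at least 2-fold lower, against 3.56% of all genes, and 66% of all genes were above 0. Over genes with a longest transcript under 1000 nt, however, 18.8% were at least 2-fold higher, 2.71% at least 2-fold lower and 90.6% above 0. The median was 0.22 for all genes, 0.55 for the 997 genes under 1000 nt, and 0.57 for the 325 of these that also stayed under 10 FPKM in both libraries. Among these low short genes 29.8% were at least 2-fold higher, 7.69% at least 2-fold lower and 76.9% above 0. The shares of members above 0 and at least 2-fold higher were thus near those of all genes under 1000 nt. Among the low short genes fewer were above 0 and more were at least 2-fold higher than among the members. Both sets of short genes include members. After subtraction of the median of 20 bins of transcript length, the members had a median of 0.03, with 24 of 42 above 0. With RefSeq transcripts only, 38 members were compared, of which 8 were at least 2-fold higher (11.7% of all genes) and 3 at least 2-fold lower (11.4%). The 3 were H2bc11, H4c9 and H3c2, whose knockout values lay wholly or mostly in models assembled from the reads, left out here. Likewise H2ac11 and H3c6, among the 8, had their whole wild-type value in such models. These calls thus depend on how the values are listed.

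**Figure D1:**
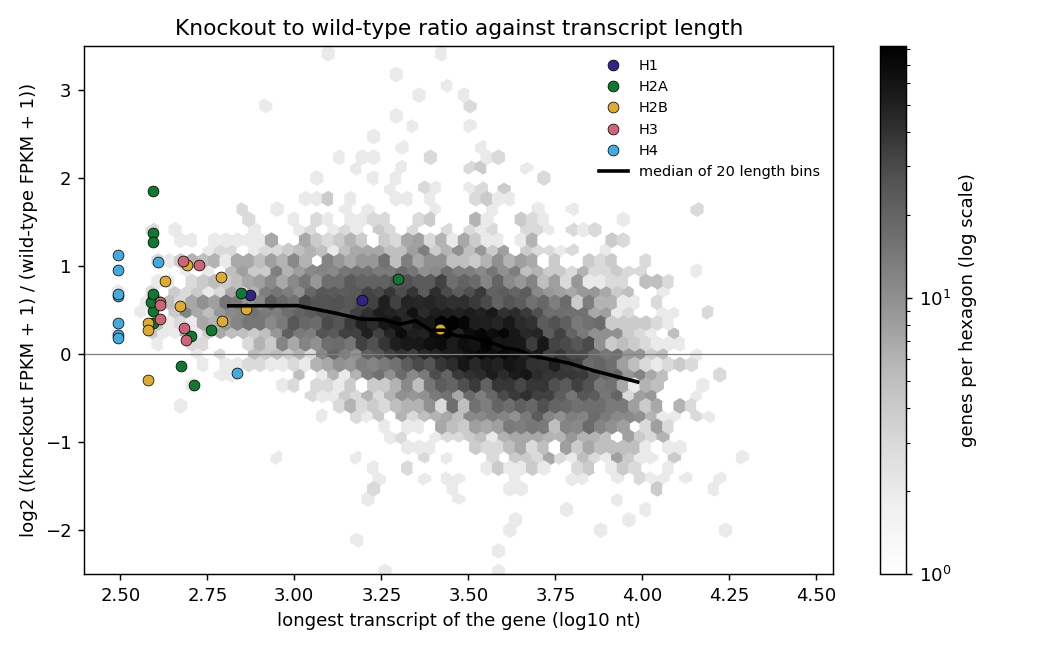
Log2 ratio of the knockout to the wild-type library (FPKM plus 1, vertical axis) against the longest transcript of each gene (log10 nt), for all genes compared (grey hexagons) and the 42 histone genes (coloured by class). The black line joins the medians of 20 length bins and falls from 0.55 in the shortest to -0.32 in the longest bin, and most histone genes sit around its left end.

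Linker histone H1 binds the nucleosome where DNA enters and leaves it, and 2 of its 6 genes reached 1 FPKM. H1f2 was at 4.87 and 7.99 FPKM (log2 ratio 0.62). Its bounds corresponded to 92 to 147 and to 175 to 255 fragments and did not overlap. H1f1 was at 2.29 and 4.24 FPKM (log2 ratio 0.67), and its bounds of 14 to 38 and 32 to 78 fragments overlapped. H1f4 was at 0.268 and 0.321 FPKM, and H1f5 at 0.377 and 0.114. The testis-specific linker histone H1f6 was at 0.169 and 0.153 FPKM, from at most 5 fragments by its bounds in either library.

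H2A genes gave the highest single value and the widest spread. The class summed to 23.4 and 39.6 FPKM, and 12 of 14 members compared were above 0, with a median log2 ratio of 0.62. H2ac18 and its near-identical neighbour H2ac19 cannot be told apart: the transcripts of both are placed at both loci, and H2ac19 was listed at 0 and at 1.42 FPKM. Summed, the pair was at 10.1 and 13.8 FPKM (log2 ratio 0.42). Likewise H2ac24 was listed at 0 and at 2.62 FPKM, whereas H2ac23 was at 2.14 and 1.46. This pair summed to 2.14 and 4.08 FPKM (log2 ratio 0.70). Both H2ac19 and H2ac24 are among the 8 members counted as at least 2-fold higher.

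H2aw, at the Hist3 cluster on chromosome 11, was at 2.04 and 4.52 FPKM (log2 ratio 0.86). Its bounds of 48 to 84 and 127 to 190 fragments did not overlap. H2ac15 was at 0.321 and 2.43 FPKM and was the third H2A gene past 2-fold. H2ac1, a testis H2A, was listed at 0 and at 0.264 FPKM.

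The H2B genes summed to 26.4 and 41.2 FPKM, and 9 of 10 members compared were above 0, with a median log2 ratio of 0.45. H2bc4 was at 7.24 and 10.8 FPKM (log2 ratio 0.51). H2bc11 was at 5.12 and 9.87 FPKM (log2 ratio 0.83). The wild-type value of H2bc11 was its RefSeq transcript, whereas in the knockout library that transcript was listed at 0 and the whole value came from an assembled model 425 nt long. The wild-type FPKM also lay above its own upper bound of 5.01. H2bc12 was at 2.61 and 3.64 FPKM, while H2bc14 was lower in the knockout library, at 3.38 and 2.58. H2bc18 was the H2B gene past 2-fold, at 0.198 and 1.42 FPKM, from bounds of 0 to 3 and 4 to 21 fragments. The testis gene H2bc1 was at 0.187 and 0.464 FPKM.

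The 7 H3 genes that passed the filter were above 0, with a median log2 ratio of 0.55, while H3c13 and H3c15, both under 1 FPKM, were below 0. The class summed to 13.3 and 24.4 FPKM, a ratio of 1.83. H3c3 and H3c1 led the class. H3c3 was at 2.67 and 6.65 FPKM, and H3c1 at 2.77 and 6.61, both just past 2-fold with log2 ratios of 1.06 and 1.02. These 2 calls rest on how the knockout file lists the genes. For each gene it gives the RefSeq transcript and an assembled model with the same exons at equal FPKM (3.33 each for H3c3, 3.31 each for H3c1). With each such pair counted once, the log2 ratios were 0.24 and 0.19, neither past 2-fold, and the H3 sum was 13.3 and 17.3 FPKM. The ratio of the H3 sum was thus the highest of the 5 classes as listed and, at 1.30, the lowest with such pairs counted once. H3c2 was at 1.02 and 2.05 FPKM, and H3c10 at 1.71 and 2.03.

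H4 was the class in which the leading gene was lower in the knockout library. H4c9 was at 8.20 and 6.95 FPKM (log2 ratio -0.21). The other 8 H4 genes compared were above 0, and the class summed to 19.7 and 28.7 FPKM with a median log2 ratio of 0.66. H4c4 was at 2.77 and 4.95 FPKM, with overlapping bounds of 2 to 17 and 6 to 27 fragments. H4c3 was at 1.83 and 4.48 FPKM, with bounds of 1 to 14 and 5 to 24 fragments, and H4c2 at 2.75 and 3.38. The knockout FPKM of H4c4 and H4c3 lay above their own upper bounds of 4.85 and 4.31. Past 2-fold were H4c12, at 0.442 and 2.14 FPKM, and H4c17, at 0.648 and 2.39. H4c17 carries a placed transcript of H4c18, and together they were at 1.87 and 3.92 FPKM (log2 ratio 0.78).

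**Figure D2:**
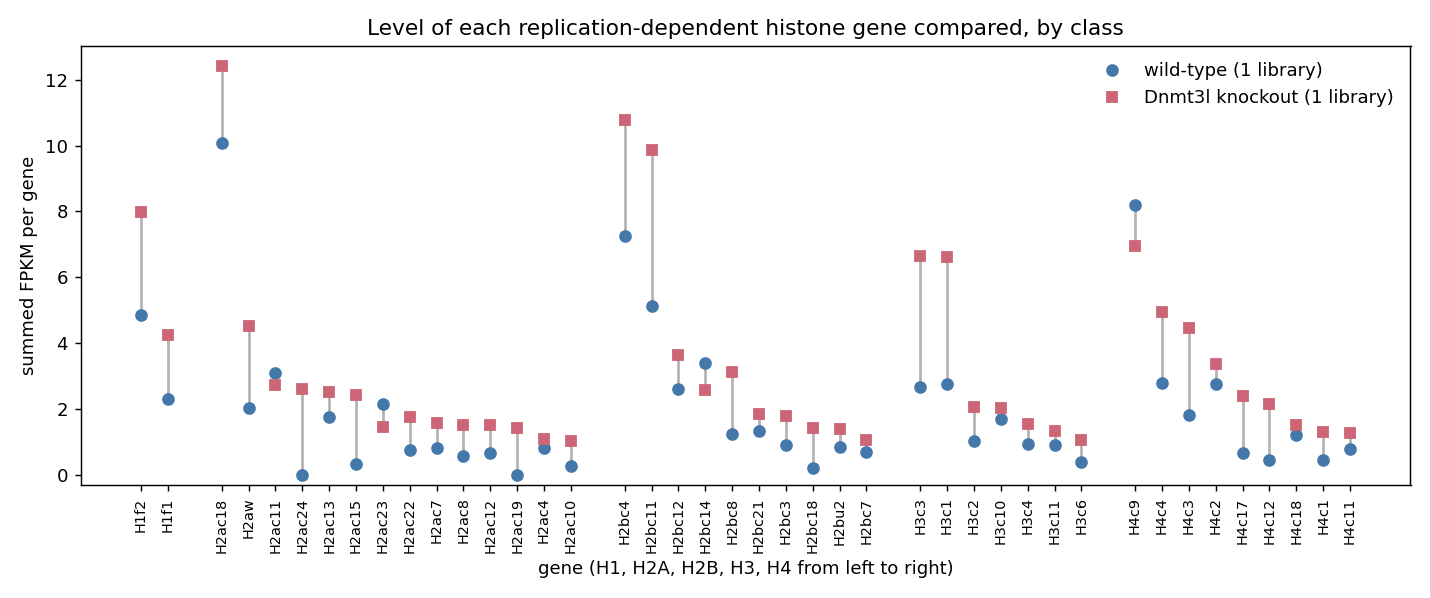
Summed FPKM of each of the 42 histone genes compared in the wild-type (circles) and knockout (squares) library, with H1, H2A, H2B, H3 and H4 from left to right and 1 library per genotype. Most squares lie above their circles, and H2ac11, H2ac23, H2bc14 and H4c9 are the exceptions.

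**Figure D3:**
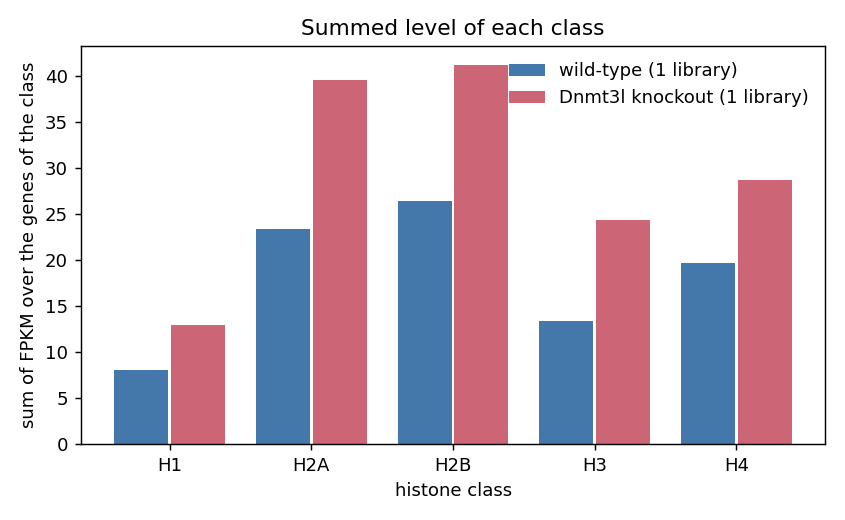
Sum of FPKM over the genes of each histone class in the wild-type and knockout library (1 library each, so no error bars). The knockout sum is the higher one in each of the 5 classes, with ratios from 1.45 for H4 to 1.83 for H3, the latter 1.30 where a model with the exons of a RefSeq transcript is counted once.

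Non-overlapping bounds with a higher knockout value were found in 6 of the 42 members, against 35.5% of all genes and 60.2% of genes under 1000 nt. The 6 were H1f2, H2aw, H2bc18, H2ac15, H2bc4 and H2bc11. The last 3 are at loci that kept the gene name in the wild-type file and were renamed in the knockout file, where the bounds follow a shorter, effective length. Their bounds are not on a common scale. Over the 27 members compared with the same kind of locus in both files the median log2 ratio was 0.49, with 4 at least 2-fold higher, and over the other 15 it was 0.65, also with 4.

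By position in the genome, members above and below 0 were found in both parts of the main cluster. This cluster, Hist1 on chromosome 13, consists of 2 blocks. In the distal block 26 of the 31 listed genes were above 0 and 5 below, and they summed to 38.6 and 69.7 FPKM. The 19 that passed the filter, 9 of them through the knockout library only, were above 0. In the proximal block 16 of 22 listed genes were above 0 and 6 below, with sums of 35.8 and 51.5 FPKM. Of the 17 that passed, 8 of them through the knockout library only, 13 were above 0. With RefSeq transcripts only, 4 of those 19 genes and 5 of those 17 were below 0. This setting leaves out assembled models, which held the whole knockout value of H2ac8, H2bc3, H2ac4 and H3c2 in the distal block. They also held that of H3c11 and H2bc11, and most of that of H4c9, in the proximal block. For these genes a ratio below 0 follows from how the values are listed. H2bc14 and H2ac23, also below 0, had no model. Whether the blocks differ was not tested. The 4 genes compared in Hist2 on chromosome 3 had a median of 0.65, and the 2 in Hist3 a median of 0.62. Of these, 2 in Hist2 and 1 in Hist3 passed the filter through the knockout library only. Without the filter the medians were 0.28 over 10 listed Hist2 genes, 2 of them below 0, and 0.38 over 3 listed Hist3 genes.

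**Figure D4:**
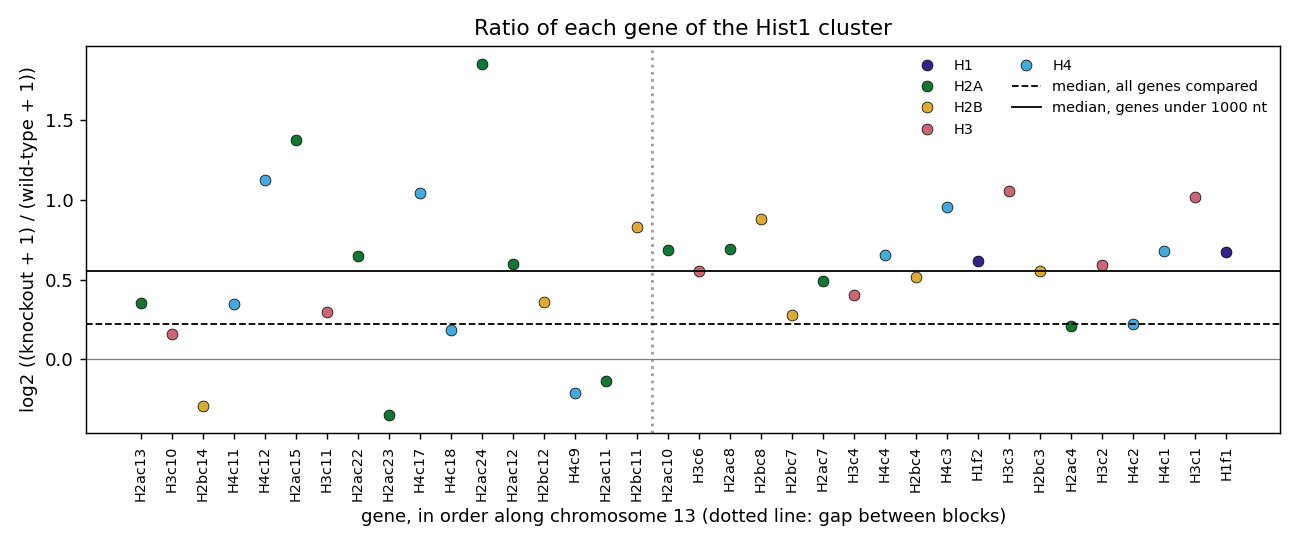
Log2 ratio of the knockout to the wild-type library for the genes of the Hist1 cluster compared, in their order along chromosome 13 and coloured by class. The dashed line is the median of all genes compared (0.22) and the solid line that of genes under 1000 nt (0.55), and the genes right of the dotted line, in the distal block, lie above 0, 9 of the 19 having passed the filter through the knockout library only.

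H2A and H2B genes often lie head to head and share the DNA between their starts, and 14 such pairs were found among the members. Both genes were compared in 4 pairs, and both were above 0 in 3 of them. The filter on level weighs on this count. H2ac12, H2ac8 and both H2bc7 and H2ac7 reached 1 FPKM in the knockout library only, so their ratios had to be above 0. With RefSeq transcripts only, H2ac8 had a log2 ratio of -0.64, while the other genes of these 3 pairs kept theirs. The whole knockout value of H2ac8 came from an assembled model, which that setting leaves out. The exception among the 4 pairs is H2ac11 and H2bc11, whose starts lie 248 nt apart around the sequence printed above. H2ac11 was at 3.09 and 2.72 FPKM, and H2bc11 at 5.12 and 9.87. Both directions rest on assembled models, which give the whole wild-type value of H2ac11 and the whole knockout value of H2bc11. With RefSeq transcripts only, the log2 ratio was 1.897 for H2ac11 and -2.61 for H2bc11. In the pair of H2ac12 and H2bc12 the levels were 0.664 and 1.51 FPKM for the first and 2.61 and 3.64 for the second.

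Where a transcript ends bears on what a poly(A) library sees. The ends counted here are those of the RefSeq annotation, not ends seen in the reads. Of the transcripts listed in the files, 18 of 16 genes ran more than 50 nt past the stem-loop, 6 ended within 50 nt after it, and 25 of 21 genes ended before it, many of them annotated over the coding sequence alone. For 24 no stem-loop was located. The annotated transcript of H1f2 ran 840 nt past its stem-loop, and that of H2aw 1487 nt. Genes with a transcript running past the stem-loop summed to 30.0 and 40.8 FPKM, a ratio of 1.36, and the median log2 ratio of the 7 compared was 0.62. Those with transcripts ending before it summed to 28.3 and 47.1 (ratio 1.67), with a median of 0.49 over 17, so that sums and medians order these 2 kinds differently. Sums had a ratio of 1.86 for transcripts ending within 50 nt after the stem-loop and of 1.76 where none was located. H4c9 has a transcript running past the stem-loop. Its knockout value came mostly from an assembled model of 686 nt at 5.80 FPKM, against 537 nt for the RefSeq transcript at 1.15. Assembled models made up 6.6% of the members' summed FPKM for wild-type and 21% for knockout.

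Near-identical sequences limit the values of single genes further. Windows of 100 nt, the read length, were shared with another member in 60 of 69 genes, and the median share of shared windows was 64.4% in H2A, 31.1% in H2B, 25.4% in H4 and 0.4% in H1, with H3 between H2A and H2B.

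Variant histones, most of which are made throughout the cell cycle from ordinary polyadenylated mRNA, ranged in level from H3f3a to H2al2a, H2bl1 and H1f7, listed at 0 in both libraries. Of 16 in the files, 12 reached 1 FPKM, and H2aj (8.88 and 9.72 FPKM) and H1f8 (1.51 and 0.991) were below the member H2ac18. H3f3a and H3f3b, which encode the replacement histone H3.3, were the most abundant, H3f3a at 443 and 754 FPKM and H3f3b at 370 and 444 FPKM. The replication-dependent H3 genes made up 1.61% of the FPKM of H3 (these genes with H3f3a and H3f3b) for wild-type and 1.99% for knockout, but 1.42% for knockout where a model with the exons of a RefSeq transcript is counted once. The direction of this share thus depends on the counting. H2az1 was at 198 and 240 FPKM, and the linker histone H1f0 at 51.5 and 69.3. The largest differences were those of Macroh2a1 (63.1 and 123.4 FPKM), H2ax (20.4 and 37.8), H3f3a and H1f10 (27.2 and 42.1). That of H3f3a rests on assembled models, its log2 ratio of 0.77 being -0.94 with RefSeq transcripts only and 0.33 at the exon level, the mean of summed FPKM over the RefSeq exon bases. Of 12 variants compared, 9 were above 0 and none was at least 2-fold different, with a median log2 ratio of 0.27. Over all genes, 66% were above 0, 7.71% at least 2-fold higher and 3.56% at least 2-fold lower.

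**Figure D5:**
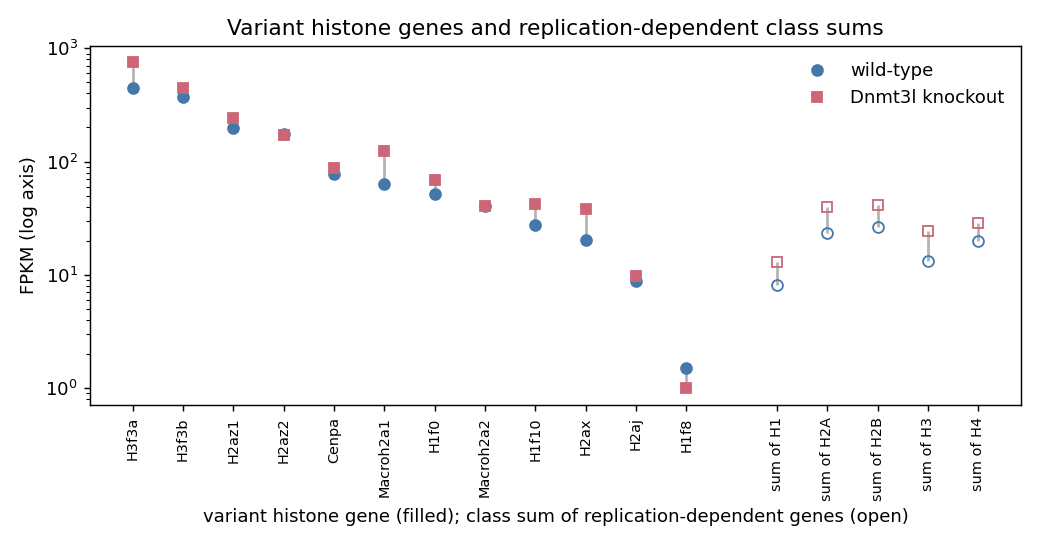
FPKM, on a log axis, of each variant histone gene compared (filled symbols) and of the sum over the replication-dependent genes of each class (open symbols) in the wild-type (circles) and knockout (squares) library. The highest class sum is 41.2 FPKM (H2B, knockout), below H3f3a, H3f3b, H2az1, H2az2, Cenpa, Macroh2a1 and H1f0 in both libraries. It is also below H1f10 in the knockout library.

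Genes that make, process and destroy histone mRNA had ratios around those of all genes, of which 7.71% were at least 2-fold higher and 3.56% lower. Of 25 genes of histone transcription and 3′-end processing, 1 was at least 2-fold higher and 1 lower, with a median log2 ratio of 0.08. Slbp was at 87.8 and 97.8 FPKM. The U7 proteins Lsm10 and Lsm11 were at 24.1 and 25.1 and at 2.91 and 3.01 FPKM. Npat, the activator of histone gene transcription, was at 13.9 and 8.90 FPKM. Casp8ap2, a cofactor of the same nuclear body, was listed at 0 and at 8.27, and Zfp473, which binds U7, at 1.20 and 0. Fip1l1, a polyadenylation factor, was at 50.3 and 91.4. Of 17 genes of histone mRNA decay, 2 were at least 2-fold higher and 1 lower, with a median of 0.18. Upf1 was at 47.2 and 95.5 FPKM, Tut7 at 10.8 and 26.6, Xrn1 at 13.5 and 5.47, and the exonuclease Eri1 at 12.4 and 6.10. Several of these differences rest on assembled models. With RefSeq transcripts only, the log2 ratio was -0.15 for Upf1, -0.40 for Tut7, -0.45 for Fip1l1 and -0.0014 for Eri1, whereas that of Npat (-1.68), Xrn1 (-3.21) and Casp8ap2 kept its direction.

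None of 25 histone chaperones and assembly factors was at least 2-fold different (median log2 ratio 0.11). Asf1a was at 31.7 and 61.0 FPKM, Mms22l at 19.2 and 31.9, and Cabin1 at 52.2 and 78.6. With RefSeq transcripts only all 3 turned, to log2 ratios of -0.45, -0.28 and -2.14. Asf1b, the paralogue of Asf1a used in dividing cells, was at 35.0 and 41.8, Nasp at 120 and 95.4 and Chaf1a, a subunit of the assembly factor CAF-1, at 28.2 and 25.8. Of 45 S phase genes compared, 2 were at least 2-fold higher and none lower, with a median of 0.18. The shares over all genes were 7.71% higher and 3.56% lower. Pcna, the replication clamp, was at 132 and 135 FPKM. Gins2 was listed at 0 and at 19.3 FPKM, Tyms was at 11.5 and 27.6, Gins1 at 15.9 and 31.4, and Cdk2 at 39.8 and 70.8. For Tyms, 1 of the 2 past 2-fold, the call was lost both with RefSeq transcripts only (log2 ratio -0.13) and at the exon level (0.33). Mki67, a marker of cycling cells, was at 38.3 and 20.6 FPKM.

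Summed levels of the markers of somatic testis cells were also higher in the knockout library. The 10 Sertoli cell markers summed to 490.0 and 1118 FPKM, with all 10 above 0 and none listed at 0. The 10 macrophage and leukocyte markers summed to 453 and 846, with 7 above 0 and Cd68 listed at 0 in the knockout library. Leydig cell markers summed to 88.4 and 174.2, with 5 of 6 compared above 0 and Star listed at 0 in both. Endothelial markers summed to 54.6 and 111.9 (5 of 7 above 0), and peritubular and stromal markers to 849.7 and 1154 (7 of 9). Of all genes compared, 66% were above 0. In the order given, the lists had median log2 ratios of 1.01, 0.78, 0.92, 1.05 and 0.57. With RefSeq transcripts only these were 0.91, 0.78, 0.68, 0.30 and 0.57, and single markers such as Wt1, Gata4, Tagln and Dcn were below 0. Meiotic markers summed to 222.1 and 233, and the few spermatid markers that passed 1 FPKM to 7.5 and 17.3. Germ cell markers summed to 1212 and 1050, with 4 of 10 above 0, and none of them was listed at 0 in either library. Histone mRNA per cell and the make-up of the cell sample cannot be told apart in such bulk RNA, and the part of the somatic cells in the histone values was not tested.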

How the data were processed

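Libraries were poly(A)-selected, copied with random primers and read as paired ends of 100 nt on a HiScanSQ, per the labels' protocols. The submitters' processing notes list CASAVA 1.9, TopHat2 2.0.8, Cufflinks 2.1.1 and mm10, with no settings. The deposited files give, per transcript, an FPKM with lower and upper bounds and a coverage, as text attributes, for 30073 RefSeq transcripts and for models assembled from each library. FPKM was summed per gene over RefSeq transcripts and same-strand models of 300 nt or more. Genes of 1 FPKM or more in at least 1 library, with a longest transcript of at least 300 nt, were compared on the log2 scale with a pseudocount of 1, which understates changes of low genes. No strand-marking step is described, so antisense reads may be included. With 1 library per genotype, 2-fold differences were counted without a test. Depth came from the steps of the bounds, of which 98.5% and 98.0% were whole fragments within 0.05. These bounds hold for 1 library's estimate and not for the spread between animals. Values of classes, clusters and lists were computed with Python 3.11.15 and pandas 2.3.3, and the computation was tested on simulated data. Named were the 3 most abundant members per class and library, the 12 highest and lowest ratios among members of 5 FPKM or more (only 7 existed), testis members, a head-to-head pair, and from each pathway list the 4 largest ratios and its defining genes, of which 1 is not reported here. Other members past 2-fold were named after their values were seen. Members and lists were chosen with earlier results of these data known. Sequences came from GENCODE M21 transcripts (GRCm38, the same as mm10) and the RefSeq promoter table. Alternatives were pseudocount, filter, scaling, transcripts used, length adjustment and, added after seeing the data, same-exon models counted once, loci of the same kind and summed copies.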

Additional observations from a re-analysis of the deposited data

How the results depend on the processing

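The median log2 ratio of the members stayed above 0 in all 19 alternatives, from 0.03 to 0.86, with the lowest after subtraction of length-bin medians. The filter on level weighs on this. In the main comparison 20 of the 42 members passed it through the knockout library only, so their ratios had to be above 0. Without the filter the median was 0.34. The count of members at least 2-fold higher (8) was 17 with a pseudocount of 0.1, 0 with one of 5 and with a filter of 10 FPKM, 3 under each of 3 scalings (centring, upper quartile, total without the 50 most abundant genes), 16 by coverage, 5 at the exon level and with near-identical copies summed, 1 after length adjustment, 4 at loci of the same kind, and 21, 0 and 2 at 1.5-fold, at 4-fold and with bounds apart. With the 10 FPKM filter only H2ac18 and H2bc4 were left, so the 0 and the median there rest on these genes alone. With a pseudocount of 0.1, 1523 of all genes were at least 2-fold higher. The count of members at least 2-fold lower (0) was 3 with RefSeq transcripts only and with the most abundant RefSeq transcript. For all genes, the count at least 2-fold higher (1066) was 419 with a pseudocount of 5, 575 with the 10 FPKM filter, 681, 699 and 620 under the 3 scalings, 1870 by coverage, 685 after length adjustment, 3138 at 1.5-fold and 271 at 4-fold. The count lower (492) was 161, 202, 759 (centring), 826 (total without the top genes), 1396 and 1360 (RefSeq only; most abundant RefSeq transcript), 1257 at 1.5-fold and 136 at 4-fold. The Hist2 median was 1.40 with a pseudocount of 0.1. The median of all genes was 0.01, 0.02 and -0.06 under the 3 scalings, with 36 of 42, 34 of 38 and 31 of 38 members above 0. With RefSeq transcripts only, H2bc11 had a log2 ratio of -2.61, H4c9 of -2.10, H3c2 of -1.02 and H2ac11 of 1.897. For H2bc11, H4c9 and H3c2 the whole or most of the knockout value lay in assembled models, which this setting leaves out. For H2ac11 the whole wild-type value did. Why the values were listed in this way, and the cause of the other shifts, was not tested. No paired analysis was possible because each genotype has 1 library.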
